A study of Mus musculus with 3 samples.

Results

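The enzymes and readers that set, remove and bind chemical marks on histones and DNA were described in 3 libraries of mouse macrophages. The members are the protein-coding genes whose symbol is Hdac, Sirt, Kdm, Kmt, Tet, Dnmt or Brd followed by a digit, together with Ezh1 and Ezh2. In all, 62 of 22028 protein-coding genes met this rule. A further 4 symbols with the same letters were left out because the annotation does not class them as protein-coding: the antisense RNAs Dnmt3aos, Dnmt3bos and Kdm6bos, and the pseudogene Kdm4dl. The rule uses symbols and annotation, and no measured value. Brd3os is a member by the rule, since it is annotated as protein-coding, although its name is that of an opposite-strand transcript and not of a bromodomain protein.

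The cells were macrophages grown from bone marrow of C57BL/6J mice, and RNA was taken from their cytosolic fraction. All libraries had the same treatment: 100 ng/ml Lipid A, the part of lipopolysaccharide that Toll-like receptor 4 recognises, for 12 h, then a washout of 12 h, then a second exposure to 100 ng/ml Lipid A for 90 min. Total RNA was depleted of ribosomal RNA and 1 µg entered each library, with a size range of 250 to 400 nt. The 3 libraries are biological replicates 1, 2 and 3 of this 1 group, with the same donor record, so the spread between them may be partly technical. Sex and age were not collected, and no untreated or once-treated group was analysed here, so the values are levels after the repeated exposure and not responses to it.

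Acetyl groups on histone tails are written by lysine acetyltransferases, erased by histone deacetylases and sirtuins, and read by bromodomain proteins. Methyl groups are written on lysines by methyltransferases such as the KMT and EZH enzymes and erased by the KDM demethylases, while DNMT enzymes methylate cytosine in CG dinucleotides and TET enzymes oxidise that mark. In macrophages these proteins are known for setting which inflammatory genes can be switched on, and for the altered response of cells that have met lipopolysaccharide before.

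The libraries held 40637857, 70407572 and 49678390 expected counts over annotated genes, of which the members took 0.350, 0.336 and 0.351%. Values of single libraries are given in this order of replicates throughout. All 10 macrophage identity markers were detected and none of the 15 markers of other cell types was, the summed levels of the latter being 0.87 to 1.43 TPM. The levels of RNA known to stay in the nucleus differed, with a sum of 21300, 38048 and 76697 TPM for 6 genes, almost all of it Rn7sk. Protein-coding genes outside the mitochondrial genome took 33.2, 29.6 and 28.0% of TPM. Early genes of the Toll-like receptor 4 response, 14 in the list, summed to 8311, 4550 and 3468 TPM. TPM, a length-scaled share of a library's transcripts, divides counts by transcript length and by the library total, so it allows comparison between genes, but it falls for all mRNAs of a library in which other RNA takes more of the total. In bulk RNA, fewer cells with a transcript and less of it per cell cannot be told apart.

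Most of the genes were expressed at moderate levels. Detection was set at 1 TPM, to be reached by each of the 3 libraries, and 47 of the 62 members passed, against 40.1% of all protein-coding genes. A level of 10 TPM or more in every library was reached by 14 members, against 16.6% of protein-coding genes. Of the other 15, 4 reached 1 TPM in some libraries only and 11 were below it in all. Together the members made up 0.174, 0.176 and 0.176% of the TPM of protein-coding genes outside the mitochondrial genome, a share that was nearly the same in all libraries. The detected members had a median level of 6.88 TPM and a median transcript length of 3783 nt, against 8.51 TPM and 2515 nt for the detected protein-coding genes. By family, leaving out the Brd genes, the summed level was 118.01 ± 6.96 TPM (SD, n = 3) for the 18 Kdm genes, 70.4 ± 3.34 for the 8 Kmt genes, 64.8 ± 6.57 for the 7 Sirt genes, 48.9 ± 15.6 for the 5 Dnmt genes, 46.7 ± 2.49 for the 11 Hdac genes, 14.3 ± 0.668 for Ezh1 and Ezh2, and 12.9 ± 2.06 for the 3 Tet genes. In the order of mean levels, Brd2 came first and its lowest library lay above the highest library of every other member. Dnmt3a and Sirt2 had overlapping ranges. Brd7 was above the range of Kmt5a. Kmt5a, Kmt2d, Sirt7, Hdac1, Kdm6b, Kdm5c and Kdm6a formed a run in which each gene overlapped its neighbours.

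**Figure D1:**
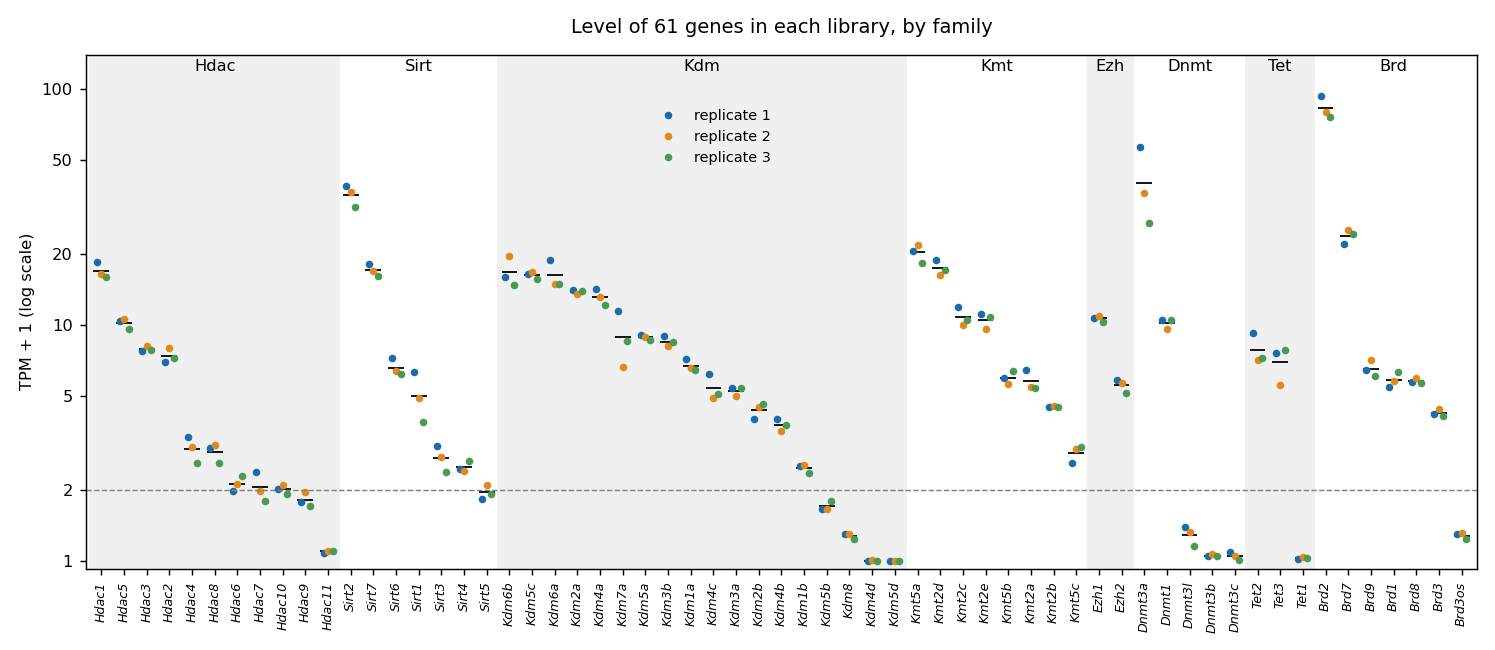
Level of 61 of the genes as TPM + 1 on a log axis, with genes grouped by family on the horizontal axis. Points are the 3 libraries, black lines their mean, and the dashed line marks 1 TPM. Brd2, Dnmt3a and Sirt2 stand highest, and 15 genes have at least 1 library below the dashed line.

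Among the classical deacetylases, Hdac1 was highest. Hdac1, a catalytic subunit of the NuRD, Sin3 and CoREST complexes, was at 17.6, 15.4 and 14.99 TPM. Its close relative Hdac2 was at 6.01, 7.02 and 6.30 TPM, and Hdac3, the catalytic subunit of the NCoR and SMRT corepressor complexes, at 6.75, 7.21 and 6.87 TPM. Hdac1 was above both in every library, its log2 ratio being 1.31 ± 0.21 (SD, n = 3) to Hdac2 and 1.20 ± 0.16 to Hdac3, and the ranges of Hdac2 and Hdac3 overlapped. Hdac8, a class I enzyme that acts on cohesin, was at only 2.02, 2.10 and 1.60 TPM. With 3 libraries an exact two-sided sign-flip test of a ratio cannot give a p below 0.25, so no p is given for the 13 ratios between related genes.

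Class IIa deacetylases shuttle between nucleus and cytoplasm and repress MEF2-driven genes. Hdac5 was the most abundant of them at 9.45, 9.66 and 8.63 TPM, above every other class IIa gene in each library. Hdac4 was at 2.36, 2.06 and 1.60 TPM and Hdac7 at 1.38, 0.99 and 0.80 TPM, with a log2 ratio of Hdac7 to Hdac4 of -0.94 ± 0.15. Hdac9 stayed below the threshold at 0.79, 0.97 and 0.72 TPM. Of the class IIb enzymes, Hdac6, the tubulin deacetylase, was at 0.98, 1.12 and 1.29 TPM and Hdac10, a polyamine deacetylase, at 1.03, 1.10 and 0.92 TPM, both on either side of the threshold. Hdac11, the sole class IV enzyme, was lowest of the family at 0.09, 0.11 and 0.11 TPM.

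The sirtuins are deacylases that consume NAD+, and their levels ran from 34.8 ± 3.71 to 0.96 ± 0.14 TPM. Sirt2, mainly a cytoplasmic tubulin and histone deacetylase, was at 38.1, 35.6 and 30.8 TPM, and Sirt7, a nucleolar enzyme, at 17.1, 16.0 and 15.2 TPM. The chromatin-bound Sirt6 was at 6.24, 5.42 and 5.19 TPM and Sirt1, which deacetylates the NF-kappaB subunit RelA among others, at 5.32, 3.90 and 2.90 TPM. Sirt2 exceeded Sirt1 by a log2 ratio of 2.84, 3.19 and 3.41, and the ranges of Sirt6 and Sirt1 overlapped. The mitochondrial sirtuins were all low: Sirt3 was at 2.09, 1.76 and 1.39 TPM, Sirt4 at 1.46, 1.42 and 1.66, and Sirt5, a desuccinylase, at 0.84, 1.11 and 0.93. The Sirt2 locus overlaps Nfkbib, which lies on the other strand, and that of Sirt3 overlaps Psmd13 and Ric8a. Whether the counting used strand is not stated in the labels or notes, so reads from such neighbours cannot be told apart. In all, 25 of the 47 detected members overlap a gene on the other strand. The share over all detected protein-coding genes was not computed, so this count cannot be called high or low.

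Demethylases of lysine 4 of histone H3 comprise the flavin enzymes Kdm1a and Kdm1b and the Jumonji enzymes of the Kdm5 group. Kdm1a, the LSD1 subunit of CoREST, was at 6.20, 5.58 and 5.44 TPM, and its relative Kdm1b at 1.54, 1.56 and 1.37 TPM. The log2 ratio of Kdm1a to Kdm1b was 1.95 ± 0.09. The X-linked Kdm5c was at 15.5, 15.8 and 14.7 TPM and Kdm5a at 8.12, 7.91 and 7.69 TPM, a log2 ratio of 0.95 ± 0.04 that was among the tightest measured. The remaining members of the group were not detected: Kdm5b was at 0.66, 0.66 and 0.81 TPM, and the Y-linked Kdm5d had 0 counts in every library, which allows a level of up to 0.0138 TPM at 3 counts in that table. A second transcript table, which the deposited notes derive directly from the FASTQ files, gave Kdm5d 0.0103, 0.0112 and 0.0263 TPM.

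Demethylases of lysine 27 of histone H3 were both well above the threshold. Kdm6b, also called Jmjd3 and known as a lipopolysaccharide-inducible gene of macrophages, was at 14.98, 18.7 and 13.9 TPM. Kdm6a, its X-linked relative Utx, was at 17.95, 14.0 and 13.9 TPM. Neither exceeded the other throughout: the log2 ratio of Kdm6b to Kdm6a was -0.26, 0.42 and -0.01, and Kdm6b led in replicate 2 alone. Kdm7a, which acts on lysines 9 and 27, was at 10.5, 5.65 and 7.61 TPM and was lowest in replicate 2, where Kdm6b was highest.

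Demethylases of lysines 9 and 36 were led by Kdm2a and Kdm4a. Kdm2a, which binds unmethylated CG dinucleotides through a CXXC zinc finger, was at 13.1, 12.6 and 13.0 TPM, and Kdm4a, which removes trimethyl marks, at 13.3, 12.2 and 11.2 TPM. The related Kdm4c was at 5.21, 3.90 and 4.10 TPM and Kdm4b at 3.00, 2.55 and 2.78 TPM, while Kdm4d was near 0, with 0, 3 and 0 counts. The lysine 9 demethylases Kdm3b and Kdm3a were at 7.97, 7.16 and 7.48 TPM and at 4.44, 4.01 and 4.40 TPM, so that Kdm3b was higher in each library. Kdm8, first described as a demethylase and later as an arginyl hydroxylase, was below the threshold at 0.31, 0.30 and 0.24 TPM. Kdm2b, which brings a Polycomb complex to CG-rich promoters, was at 3.00, 3.51 and 3.63 TPM, lower than Kdm2a by a log2 ratio of 1.94 ± 0.16.

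Most Kdm2b RNA was assigned to a short transcript. Kdm2b-201, which starts inside the gene, took 77.3 ± 2.53% of the gene's TPM, and the long transcripts Kdm2b-202 and Kdm2b-203 with the upstream starts took 19.2 ± 1.21%. The second transcript table gave 62.1 ± 13.8% and 20.9 ± 3.17%, the short form being higher in each library in both. The short form codes for 776 residues, the last 758 of which are those of the long form with 1309 residues, so it lacks the N-terminal stretch where the Jumonji demethylase domain of the long protein lies. RefSeq lists 4 Kdm2b starts on GRCm38.p6, the same assembly as mm10, and the 250 bases before the most upstream one and before one of the internal pair are shown, because these starts belong to forms of different length. Capitals mark CG dinucleotides, and each sequence is written 5' to 3' on the minus strand of chromosome 5. The upstream start is preceded by chr5:122989100-122989349 and the internal start by chr5:122900368-122900617.
Kdm2b upstream start: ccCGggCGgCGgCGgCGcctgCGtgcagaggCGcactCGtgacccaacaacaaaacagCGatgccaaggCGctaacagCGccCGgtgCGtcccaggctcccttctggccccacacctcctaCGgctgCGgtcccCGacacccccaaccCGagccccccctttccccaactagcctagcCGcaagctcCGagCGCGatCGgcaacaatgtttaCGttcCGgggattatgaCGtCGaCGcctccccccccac
Kdm2b internal start: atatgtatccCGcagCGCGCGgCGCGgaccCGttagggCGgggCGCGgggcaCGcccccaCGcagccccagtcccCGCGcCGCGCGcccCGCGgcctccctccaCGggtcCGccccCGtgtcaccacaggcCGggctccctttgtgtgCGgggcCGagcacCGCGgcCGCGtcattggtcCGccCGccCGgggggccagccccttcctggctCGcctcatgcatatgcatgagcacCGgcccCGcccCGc
The upstream window holds 27 CG dinucleotides and the internal one 36, placing them at the 91.4 and 97.4 percentiles of the 32851 promoter windows of the same length. Of the windows not shown, the other internal one holds 38, at the 98.1 percentile, and that before the second upstream start, chr5:122988508-122988757, holds only 12, at the 66.5 percentile.

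The 8 Kmt genes were all detected, against 40.1% of all protein-coding genes. Of the enzymes that methylate lysine 4 of histone H3, Kmt2d was at 17.9, 15.4 and 16.1 TPM and Kmt2c at 11.0, 9.06 and 9.50 TPM, both being enhancer-associated catalytic subunits. Their log2 ratio was 0.70, 0.76 and 0.76, the smallest spread of the 13 ratios. The promoter-associated Kmt2a was at 5.45, 4.50 and 4.41 TPM and Kmt2b at 3.49, 3.56 and 3.49 TPM, Kmt2b differing by no more than 1.02-fold between libraries. Kmt2e, a relative without clear methyltransferase activity, was at 10.1, 8.65 and 9.80 TPM. Of the enzymes acting on lysine 20 of histone H4, Kmt5a, which adds the first methyl group, was at 19.7, 20.99 and 17.4 TPM. Kmt5b and Kmt5c, which add further methyl groups, were at 4.98, 4.63 and 5.38 TPM and at 1.60, 1.98 and 2.04 TPM. The log2 ratio of Kmt5a to Kmt5c, 3.37 ± 0.26, was the largest of the 13.

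Ezh1 and Ezh2 are the alternative catalytic subunits of Polycomb repressive complex 2, which methylates lysine 27 of histone H3, and Ezh2 is known as the form of dividing cells. Ezh1 was at 9.79, 9.99 and 9.33 TPM and Ezh2 at 4.85, 4.72 and 4.19 TPM. Ezh1 was the higher in every library, the log2 ratio of Ezh2 to Ezh1 being -1.01, -1.08 and -1.15. Beside this, 7 of 10 proliferation markers were detected, against 40.1% of all protein-coding genes, with a summed level of 123, 103 and 93.8 TPM. Pcna held 76.9, 62.3 and 58.8 TPM of that sum and Mki67 22.5, 17.4 and 12.0 TPM. The other detected markers, Mcm3, Cdk1, Top2a, Mcm5 and Mcm2, had means of 7.11, 5.09, 3.45, 3.34 and 2.81 TPM. Ccnb1, Ccna2 and Plk1 were not detected, with means of 0.72, 0.61 and 0.19 TPM. Whether the cells were dividing was not tested.

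Of the DNA methyltransferases, the de novo enzyme Dnmt3a stood after Brd2 in mean level. Its coefficient of variation in TPM was the largest of the detected members, 38.9%. In counts scaled to library size its range was 1.51-fold, smaller than the 1.83, 1.71 and 1.62-fold of Kdm7a, Sirt1 and Tet3. The cause of this difference between scales was not tested. Dnmt3a was at 56.1, 35.4 and 26.2 TPM, highest in replicate 1 and lowest in replicate 3. The maintenance enzyme Dnmt1 was at 9.56, 8.69 and 9.50 TPM, below Dnmt3a in each library by a log2 ratio of -2.55, -2.03 and -1.47. Dnmt3b, the other mammalian de novo enzyme, was at 0.05, 0.07 and 0.05 TPM, the rodent germline enzyme Dnmt3c at 0.10, 0.05 and 0.01 TPM, and the catalytically inactive cofactor Dnmt3l at 0.40, 0.33 and 0.16 TPM. The antisense RNA Dnmt3aos, whose gene overlaps Dnmt3a, was at 2.85, 1.90 and 1.81 TPM, with its highest value also in replicate 1.

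Dnmt3a RNA was divided among a long, a short and a non-coding form. The long form, read from the upstream starts by Dnmt3a-201 and Dnmt3a-218, was at 16.9, 13.1 and 10.8 TPM, or 36.2 ± 5.67% of the gene. The short form Dnmt3a-205, known as Dnmt3a2, starts inside the gene and was at 16.9, 9.83 and 7.37 TPM, or 28.7 ± 1.32%. Its 689 residues are the last 689 of the 908 in the long form, so it lacks only the N-terminal part. Dnmt3a-214, annotated as a retained intron, was at 16.6, 9.09 and 5.72 TPM, or 25.7 ± 3.93%. All 3 forms were highest in replicate 1 and lowest in replicate 3. In the second transcript table the same forms took 25.4 ± 2.89, 25.7 ± 6.69 and 20.6 ± 5.44%. The order of the long and short forms differed between libraries within each table. In the first the short form was higher in replicate 1 only, and in the second the long form was higher in replicate 3 only. Of 3 RefSeq starts of Dnmt3a, the 250 bases before the most upstream one, chr12:3806730-3806979, and before the internal one, chr12:3891494-3891743, both on the plus strand, are shown because the short form has a separate start, with CG in capitals as above.
Dnmt3a upstream start: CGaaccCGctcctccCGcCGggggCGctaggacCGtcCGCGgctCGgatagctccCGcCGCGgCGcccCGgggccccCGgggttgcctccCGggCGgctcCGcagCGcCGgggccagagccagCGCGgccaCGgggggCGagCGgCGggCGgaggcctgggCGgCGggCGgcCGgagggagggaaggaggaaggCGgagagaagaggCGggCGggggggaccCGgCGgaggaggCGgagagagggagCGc
Dnmt3a internal start: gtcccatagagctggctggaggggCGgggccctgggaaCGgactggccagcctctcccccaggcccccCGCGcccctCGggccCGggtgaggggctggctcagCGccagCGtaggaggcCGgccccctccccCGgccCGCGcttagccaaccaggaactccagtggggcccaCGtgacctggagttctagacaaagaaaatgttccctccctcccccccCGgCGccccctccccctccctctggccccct
The upstream window holds 38 CG dinucleotides, at the 98.1 percentile of all windows, and the internal window 15, at the 72.7 percentile. The window before the other upstream start, chr12:3806910-3807159, overlaps the first and holds 40, at the 98.7 percentile.

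**Figure D2:**
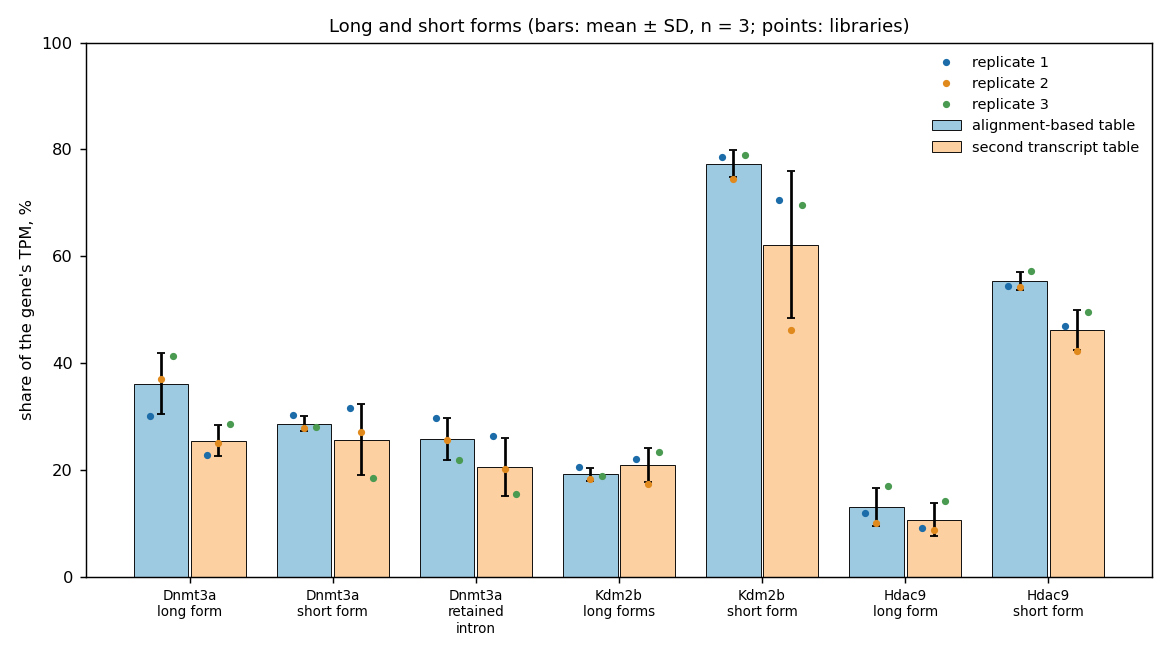
Share of each gene's TPM, in percent, taken by named forms of Dnmt3a, Kdm2b and Hdac9 in the alignment-based and the second transcript table. Bars are means with SD over 3 libraries and points are libraries. The Kdm2b short form is above its long forms in every library of both tables, while the Dnmt3a forms overlap.

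The TET dioxygenases were represented by Tet2 and Tet3. Tet2, often mutated in blood cancers, was at 8.25, 6.14 and 6.24 TPM and Tet3 at 6.61, 4.59 and 6.83 TPM. Their ranges overlapped, and the log2 ratio of Tet2 to Tet3 was 0.32, 0.42 and -0.13, so neither led in all libraries. Tet1, the form best known from embryonic stem cells, was near 0 at 0.02, 0.04 and 0.03 TPM.

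The bromodomain readers included the most abundant member. Brd2, of the BET group that binds acetylated histones, was at 93.02, 78.9 and 75.3 TPM. The Brd2 locus overlaps H2-DMa and CR974462.3, which lie on the other strand. Brd3, of the same group, was at 3.23, 3.40 and 3.13 TPM, far below Brd2 in every library. Among the subunits of remodelling and acetyltransferase complexes, Brd7 of PBAF was at 21.1, 24.4 and 23.3 TPM, Brd9 of non-canonical BAF at 5.45, 6.12 and 5.11, Brd1 at 4.49, 4.83 and 5.35, and Brd8 at 4.77, 4.97 and 4.71. Brd3os was at 0.30, 0.32 and 0.24 TPM.

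**Figure D3:**
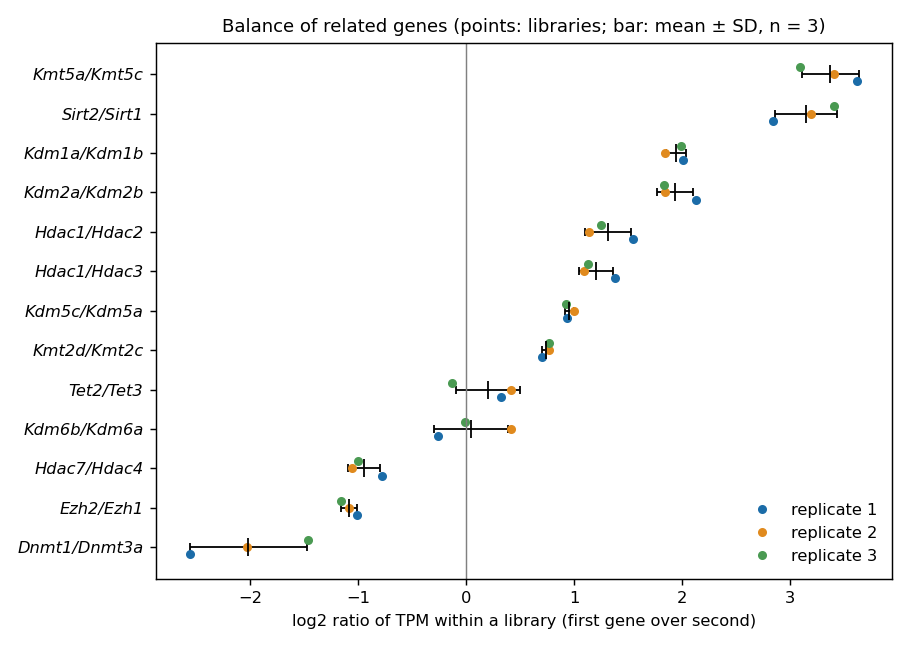
Log2 ratio of TPM within each library for 13 pairs of related genes, with points for libraries and bars for mean ± SD (n = 3). For 11 pairs all libraries lie on the same side of 0, and the exceptions are Kdm6b/Kdm6a and Tet2/Tet3.

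Many members were divided over several annotated transcripts. The dominant transcript, the one with the highest mean share of a gene's TPM, was of the protein-coding biotype in 46 of 47 detected members. Among all detected protein-coding genes, 4.73% had a dominant transcript of another biotype. The exception was Sirt4, whose leading transcript is an annotated retained intron with 39.0 ± 4.89% of TPM. The dominant transcript took under 50% in 11 members, against 14.4% of detected protein-coding genes, and 90% or more in 8 members, against 41.9%. The members under 50% include Brd7, Dnmt3a, Ezh2, Hdac5, Kdm5a, Kdm6a, Kmt2c, Kmt5b, Sirt2 and Sirt4. Detected members have a median of 8 annotated transcripts and detected protein-coding genes a median of 5. At the other end, Kdm7a, Kdm4c, Hdac2 and Kdm6b gave 98.9% or more to 1 transcript. Summed over members, 86.3 ± 0.43% of TPM was on protein-coding transcripts, 5.08 ± 0.33% on transcripts annotated for nonsense-mediated decay, 4.90 ± 0.75% on retained introns and 3.77 ± 0.65% on other processed transcripts. For detected protein-coding genes the same shares were 93.1 ± 0.43, 1.67 ± 0.08, 3.03 ± 0.25 and 2.15 ± 0.14%. These sums weigh genes by their level, and Brd2, Brd7 and Dnmt3a had only 71.0, 47.2 and 73.4% of their TPM on protein-coding transcripts. The median share per gene was 97.2% for detected members and 98.5% for detected protein-coding genes.

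Some of these divisions set short proteins against long ones. For Hdac9, low as it was, the short Hdac9-201 took 55.4 ± 1.70% and the long Hdac9-205 took 13.0 ± 3.59%. The short protein of 588 residues shares its first 572 with the long one of 1064, and a short Hdac9 protein without the deacetylase domain is known. Dnmt1 was divided between Dnmt1-201, with 64.3 ± 2.62%, and Dnmt1-202, with 34.5 ± 2.91%. These transcripts begin at different first exons, that of Dnmt1-202 lying upstream, and have 4860 and 4503 coding nt. Brd2-207, annotated for nonsense-mediated decay, took 21.5 ± 0.75% of Brd2, and Sirt1-205 of the same biotype took 26.0 ± 5.03% of Sirt1 in the first table and 13.2 ± 4.42% in the second. Kdm6b, in contrast, was nearly all Kdm6b-201, with 98.9 ± 0.68%.

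The dominant transcript was the same in both transcript tables for 43 of 47 detected members, against 90.8% of detected protein-coding genes. The exceptions were Brd7, Ezh2, Hdac5 and Kdm5a. In Brd7 the full-length Brd7-201 took 47.2 ± 3.33% in the first table and 35.6 ± 1.33% in the second, where the fragment Brd7-203 led with 50.6 ± 3.12%. In Kdm5a the full-length Kdm5a-201 took 43.4 ± 3.91 and 27.3 ± 2.56%, and the fragment Kdm5a-207 took 37.9 ± 2.17 and 32.9 ± 0.73%. At the gene level the tables were closer. The second table gave a median of 0.557 times the TPM of the first over 8818 detected protein-coding genes, and all 47 detected members lay within 0.5 log2 units of that median, as did 97.8% of those genes.

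**Figure D4:**
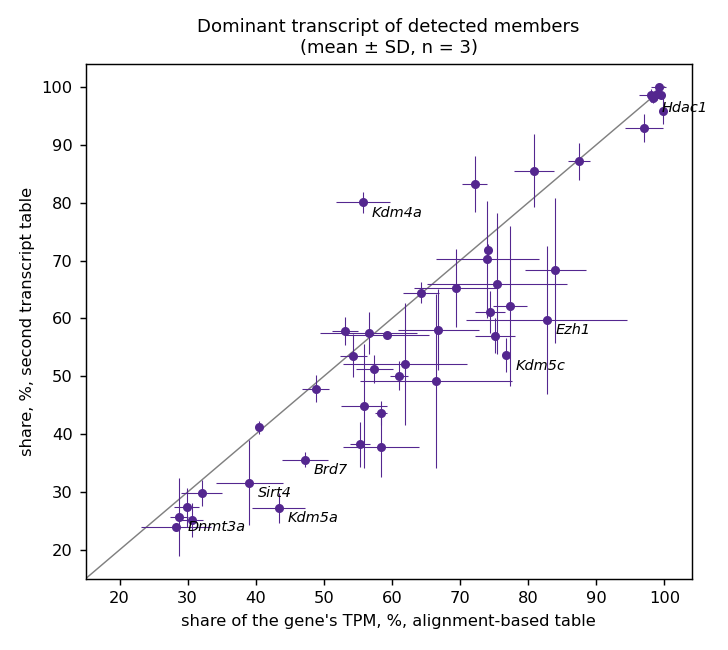
Share of the gene's TPM taken by the dominant transcript of 46 detected members, in percent, in the alignment-based table (horizontal) and the second transcript table (vertical), as mean ± SD over 3 libraries with the line of equality. Brd7 and Kdm5a lie below the line, at 47.2 against 35.6% and 43.4 against 27.3%.

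No member passed the test of variation between libraries. The edgeR goodness-of-fit test, with Benjamini-Hochberg adjustment, asked for variation beyond the dispersion trend, which was fitted on the same 3 libraries. At an edgeR adjusted p under 0.05, 240 of 12256 genes varied, or 1.96%, and 0 of the 57 members tested did. With so few members tested, 0 is near that share and does not set the members apart. With DESeq2's size factors in the same test the count of members was also 0. Without replicate 1, 2 or 3 the count of genes was 119, 102 and 82, and that of members 0 each time. At an unadjusted p under 0.05 there were 3 members of the 57, against 6.88% of all genes. They were Kdm7a, Sirt1 and Tet3. Kdm7a was at 158, 86.3 and 125 CPM, counts scaled to library size with TMM, a 1.83-fold range with an edgeR adjusted p of 0.238. Sirt1 was at 29.7, 21.5 and 17.4 CPM (edgeR adjusted p = 0.405) and Tet3 at 101, 69.7 and 113 (edgeR adjusted p = 0.541). The difference of Dnmt3a shrank from 2.14-fold in TPM to 1.51-fold in CPM, with 303, 230 and 201 in the libraries and an edgeR adjusted p of 1. The 5 members not tested had too few counts: Dnmt3c, Dnmt3l, Kdm4d, Kdm5d and Tet1.

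The library in which a member was highest depended on the scaling. In TPM, 26 detected members were highest in replicate 1, 14 in replicate 2 and 7 in replicate 3, or 55.3, 29.8 and 14.9%, against 47.5, 38.2 and 13.5% of detected protein-coding genes. In TMM-scaled counts the counts for the same 47 members were 21, 8 and 18, or 44.7, 17.0 and 38.3%, against 36.3, 32.5 and 31.2% of the same protein-coding genes. The median coefficient of variation in TPM was 8.26% for detected members and 10.1% for detected protein-coding genes, and 31 of 47 members were under 10%, against 49.6%. In TMM-scaled counts the medians were closer, at 7.84 and 8.87%. In the edgeR test 7 of 14 early Toll-like receptor 4 genes varied, all highest in replicate 1, against 1.96% of all genes. Of all 240 varying genes, 143 were highest in replicate 1. Of 5 nuclear RNAs tested 4 varied, Malat1, Neat1, Rn7sk and Xist, and each had its highest TPM in replicate 3. The part of these differences in the levels of the members was not tested.

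**Figure D5:**
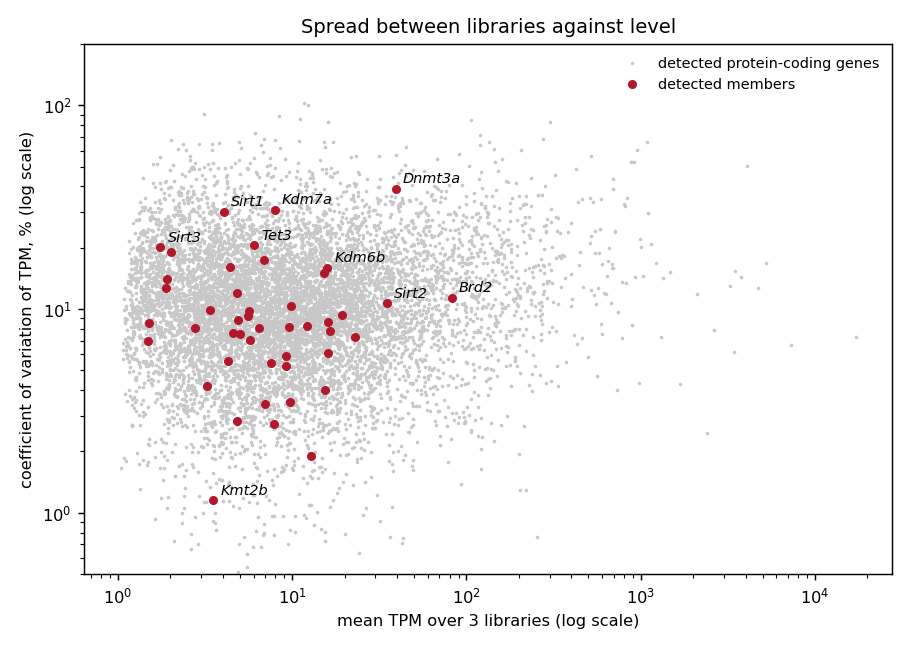
Coefficient of variation of TPM over 3 libraries, in percent, against mean TPM, both on log axes, for detected protein-coding genes (grey) and 46 detected members (red). Dnmt3a, Kdm7a and Sirt1 are the members with the widest spread, and Kmt2b has the narrowest of those plotted.

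Most of the listed partners of these enzymes were detected too. The share over all protein-coding genes, 40.1%, is the background for each list in this paragraph and the next. Of the genes listed for Polycomb repressive complex 2, 8 of 9 were detected, led by the histone chaperone Rbbp7 at 20.6 ± 1.495 TPM, the accessory subunit Aebp2 at 19.1 ± 3.49 and the core subunit Eed at 14.9 ± 1.34. The accessory factors Phf1, at 1.96 ± 0.33 TPM, and Phf19, at 0.89 ± 0.19, were lowest. All 12 genes listed for the KMT2 and related complexes were detected, among them the methyltransferases Setd1a and Setd1b. Levels ran from Hcfc1 at 14.4 ± 0.61, Dpy30 at 11.2 ± 1.13 and Ncoa6 at 8.90 ± 1.20 TPM down to Psip1 at 2.68 ± 0.42 and Paxip1 at 1.59 ± 0.08. Of the genes of HDAC corepressor complexes 21 of 22 were detected. The methyl-CG reader Mbd2 of NuRD was at 50.1 ± 5.25 TPM, the Hdac3 corepressor Ncor1 at 45.03 ± 2.27 and the scaffold Sin3b at 33.8 ± 4.86, while Rcor3 was at 3.46 ± 0.24 and Rcor2 at 0.09 ± 0.04. Mbd2, Ncor1 and Sin3b were each above Hdac1 in every library.

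Among other lysine methyltransferases 15 of 16 were detected, with Nsd3 at 25.6 ± 4.98 TPM, the lysine 9 enzyme Ehmt2 at 24.7 ± 1.02 and the lysine 36 enzyme Setd2 at 16.8 ± 0.54 highest, and Smyd3 at 2.06 ± 0.23 and Suv39h2 at 0.19 ± 0.03 lowest. Setdb2, named because it was the only gene of these chromatin partner lists to vary between libraries by edgeR, was at 19.6, 10.1 and 9.90 TPM. All 10 lysine acetyltransferases were detected, from Hat1 at 23.4 ± 3.55, Ep300 at 18.9 ± 1.02 and Kat7 at 12.7 ± 0.54 TPM to Kat2a at 3.64 ± 0.52 and Kat6b at 1.44 ± 0.16. Other Jumonji proteins were detected in 7 of 9 cases, led by Jmjd1c at 19.6 ± 1.71, Riox2 at 8.55 ± 0.67 and Phf8 at 5.37 ± 0.73 TPM, and the Y-linked Uty and the hair follicle gene Hr were at 0 TPM. Of the genes listed as readers or partners of DNA methylation 6 of 8 were detected. Apobec1, a cytidine deaminase and not itself a methylation reader, was at 135 ± 18.5 TPM. Next came Uhrf2 at 10.4 ± 1.06 and Mbd1 at 10.4 ± 0.59, while Mbd4 was at 0.68 ± 0.10 and Cxxc5 at 0.10 ± 0.03. Of the P-TEFb and BET effectors 6 of 7 were detected: Nsd3 as above, the kinase Cdk9 at 22.8 ± 0.99 TPM and its cyclin Ccnt1 at 11.0 ± 1.47 were highest, and Ccnt2 at 3.55 ± 0.07 and Hexim2 at 0.96 ± 0.02 lowest.

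Most promoter windows of the members held more CG dinucleotides than the median window. Windows of 250 bases before a start were found in the RefSeq table for 49 of the 62 members, 73 windows in all. The median member window held 17 CG dinucleotides, against 6 for all 32851 windows. Of the 73 member windows 12, among them both of Hdac9, held 6 or fewer, as did 53.7% of all windows. The letters TATAAA, searched on both strands, occurred in 3 member windows, those of Hdac8, Hdac9 and Kdm5d, which is 4.11% against 12.4% of all windows. The NF-kappaB consensus, also searched on both strands, occurred in 7 member windows, or 9.59%, against 7.25% of all windows, and these belong to Dnmt3b, Kdm2b, Kdm5b, Sirt2, Sirt3, Sirt5 and Sirt6. The matches describe letters in these windows only.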

How the data were processed

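Each of the 3 libraries has a deposited gene table and a first transcript table, both made by the authors from transcriptome alignments, and a second transcript table made directly from the FASTQ files, on mm10 with GENCODE M21, per the deposited notes. The program names, and whether counting used strand, are not given in the labels or notes. The column sets are those that RSEM and kallisto write. The deposited expected counts and estimated counts are unnormalized and not whole. TPM and FPKM were computed by the authors with effective lengths, per the file headers, and FPKM was not used here. The percent values are each transcript's share of its gene's TPM, per the file headers. Sequences of phiX, ERCC and tRNA (0.227, 0.110 and 0.0959% of counts) were left out.

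Members and lists were chosen with earlier results of these data known. Detection was 1 TPM or more in every library. Ratios were taken as log2 of TPM without a pseudocount. For variation, expected counts were rounded, filtered with filterByExpr and scaled by TMM, and edgeR 4.0.16 under R 4.3.3 gave a goodness-of-fit test of an intercept-only model at the trended dispersion, adjusted over all genes at 0.05. The common biological coefficient of variation was 16.3%. Transcript and promoter values were computed in Python 3.11.15 with pandas 2.3.3. Members are named, except 1 that is counted but not reported here, with the 3 highest and 2 lowest genes of each partner list. The forms shown for Kdm2b, Hdac9, Dnmt1, Brd2, Sirt1, Kdm5a and Brd7 were chosen after their values were seen. Alternatives were other thresholds, a rescaling over nuclear protein-coding genes, the authors' posterior mean TPM, the second table, other scalings, filters and dispersions, a pseudocount of 1 TPM and leaving out each replicate. The authors' posterior SD of the count was under 1% of it for 57 members.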

Additional observations from a re-analysis of the deposited data

How the results depend on the processing

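The count of detected members was 47. It was 28 at a threshold of 5 TPM, 53 at 0.5 TPM or after rescaling over nuclear protein-coding genes, 42 in the second transcript table and 53 in that table rescaled, an alternative chosen after seeing the data. It was 47 to 48 without 1 replicate. The count of varying genes was 240 and fell to between 82 and 119 without 1 replicate, where only 2 libraries are compared. The count of members was 0 in all 7 alternatives of that test.

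For the 13 ratios, 62 of 78 alternatives moved the mean by less than 1 SD, 14 moved it by more on the same side of 0 and 2 reversed it. Those 2 were for Kdm6b/Kdm6a, at -0.13 in the second table and, over the fits that leave out 1 replicate, -0.13 without replicate 2 to 0.21 without replicate 1. With a pseudocount of 1 TPM the log2 ratio was -0.94 for Ezh2/Ezh1, 0.87 for Kdm5c/Kdm5a, 1.44 for Kdm1a/Kdm1b, 1.67 for Kdm2a/Kdm2b, -0.55 for Hdac7/Hdac4, 2.85 for Sirt2/Sirt1, 0.69 for Kmt2d/Kmt2c and 2.82 for Kmt5a/Kmt5c, lower in size by construction. In the second table it was 0.54 for Kdm5c/Kdm5a, -1.34 for Hdac7/Hdac4, 2.78 for Sirt2/Sirt1 and 0.61 for Kmt2d/Kmt2c. With the posterior mean TPM it was -0.98 for Ezh2/Ezh1 and 1.66 for Kdm2a/Kdm2b. The cause was not tested for the second table, the posterior mean or the reversal. No paired analysis was possible because there is 1 group.

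The limits are those of 3 libraries of 1 group: no condition can be compared, an exact sign-flip p for a ratio cannot go below 0.25, and the libraries share a donor record. Levels of genes that overlap a gene on the other strand, and shares of transcripts with much sequence in common, rest on how the authors' programs divided the reads.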
